A study of Homo sapiens with 12 samples.

Results

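CGAS, IFI16, IFIH1, TREX1, STING1, MAVS, TBK1 and IRF3 were followed in MDA-MB-231 cells, a triple negative breast cancer line, that were grown in Matrigel with or without Paclitaxel. These 8 genes were chosen by name as sensors, adaptors, a kinase, a transcription factor and a nuclease of the response to nucleic acid in the cytosol. All 8 were found by their Ensembl identifiers among the 63568 rows of the count table, and all 8 passed the filter on low counts, which kept 25249 rows. Bulk RNA-seq was made of 12 libraries in 6 conditions, with 2 biological replicates each. C1 held untreated cells of day 2 and C2 untreated cells of day 4, and the other 4 conditions held cells given 0.0005, 0.005, 0.05 or 0.5 μM Paclitaxel on day 2 and collected on day 4. These days are those of the labels, while the study's methods name a later day for the drug in its imaging experiment and refer to the same procedure for RNA-seq, so the exposure time is uncertain. Paclitaxel is a drug that stabilises microtubules and blocks cell division. All cells were labelled wild type, carried a GFP label in the nucleus, and were set as Matrigel droplets on glass, so every group is this 1 line and every library mixes all cells of its droplets.

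Double-stranded DNA in the cytosol, as from a ruptured micronucleus or a DNA virus, is bound by cGAS, the product of CGAS, which makes the second messenger cyclic GMP-AMP. STING1, on the endoplasmic reticulum, binds this messenger and recruits the kinase TBK1, which phosphorylates the transcription factor IRF3, and IRF3 then turns on interferon genes. IFI16 is a DNA-binding sensor of cytosol and nucleus, IFIH1 encodes MDA5, a helicase that binds long double-stranded RNA and signals through MAVS on mitochondria, and TREX1 is an exonuclease that degrades cytosolic DNA. IFIH1 and IFI16 are themselves known as interferon-inducible genes.

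The stretches before the transcription starts of IFIH1 and IFI16 are shown because these 2 members alone passed edgeR's test in the comparisons below as first fitted, before any library, control or setting was changed. RefSeq promoters (GRCh38.p14, 250 bases before and 50 bases after a start) were given for IFI16, IFIH1, MAVS, TBK1 and TREX1, and their places below come from an exact match of the same bases to GRCh37. Both strands were searched for GAAANNGAAA, letters shared by many interferon-stimulated response elements, and matches are in capitals. The IFIH1 stretches lie on the minus strand of GRCh37 at chr2:163175195-163175349 and chr2:163175334-163175363, and 14 bases of the shorter one fall in an annotated exon. The IFI16 stretch lies on the plus strand at chr1:158979447-158979681.
IFIH1, bases -155 to -1: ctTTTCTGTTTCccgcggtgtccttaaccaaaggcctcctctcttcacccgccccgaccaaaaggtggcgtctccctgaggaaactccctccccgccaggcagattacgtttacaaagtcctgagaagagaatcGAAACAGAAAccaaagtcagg
IFIH1, bases -169 to -140: gagaattcgcTTTCCTTTTCTGTTTCccgc
IFI16, bases -250 to -16: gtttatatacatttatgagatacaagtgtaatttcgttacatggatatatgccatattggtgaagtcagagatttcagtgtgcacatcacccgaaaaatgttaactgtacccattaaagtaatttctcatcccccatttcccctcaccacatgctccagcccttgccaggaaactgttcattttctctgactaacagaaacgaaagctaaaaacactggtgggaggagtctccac
IFIH1 held 3 matches, of which the pair starting at -159 and -153 overlapped each other and the other started at -21. The 2 promoters of IFI16 and those of MAVS, TBK1 and TREX1 held none. Of all 35116 promoters, 1255 (3.57%) held the letters, and of the 39 promoters of the interferon list described below, 22 did. The letters TTCNNNGAA, searched on both strands in the same way, were in 2689 promoters (7.66%) and in none of the 6 given for the members. A match is a description of the letters and not of a factor's binding.

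Totals per library ran from 38380629 to 79169121 counts, and the mitochondrial share of counts from 3.73% to 7.74%. The replicates of C1 stood apart from each other: their log2 CPM values differed with an SD of 0.58 over 12245 genes, against 0.10 to 0.24 in the other conditions, and C1 replicate 2 had the lowest total and the highest mitochondrial share. Markers of the line were abundant, with VIM at 797 to 1366 CPM (counts scaled to library size) and CD44, AXL and EGFR at 237 CPM or more, though AXL, EGFR and CAV1 of the 7 listed were called lower in treated than in untreated libraries (list median -0.23), whereas ESR1 was at most 0.46 and PGR at most 0.09 CPM. ERBB2, the third receptor that this class of tumour lacks by definition, was at 26.6 to 52.4 CPM. Of the markers of other cells, CD14, PTPRC, COL3A1 and TEK were called higher in treated than in untreated libraries, and the ranges of the summed lists overlapped for all but the leukocyte list. The 6 leukocyte markers summed to 0.54 to 0.87 CPM in the 4 untreated and 1.31 to 1.80 CPM in the 8 treated libraries, most of it CD14, with CD3E at 0.03 CPM or less. The 6 fibroblast markers summed to 8.83 to 16.9 and 12.2 to 19.6 CPM, with COL1A2 and DCN at 0.15 CPM or less, and the 3 matched endothelial markers to 0.24 to 0.85 and 0.71 to 1.45 CPM. The 4 luminal epithelial markers summed to 181 to 240 and 152 to 285 CPM, most of it KRT19, with CDH1 at 0.2 CPM or less. The part of these cells or of shared background in the changes below was not tested, and in bulk RNA fewer cells of a type and less RNA per cell cannot be told apart.

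Per kilobase of annotated exon, IFI16 and IRF3 were the most abundant members and IFIH1 and TREX1 the least. Over the 12 libraries the mean length-scaled level (CPM per kb of exon) was 20.6 ± 5.35 for IFI16 (SD, n = 12), 17.1 ± 0.88 for IRF3, 9.60 ± 1.151 for CGAS, 7.12 ± 1.001 for STING1, 3.54 ± 0.81 for MAVS, 3.31 ± 0.44 for TBK1, 2.69 ± 0.53 for TREX1 and 2.57 ± 0.79 for IFIH1. These SDs include the differences between conditions. IRF3 was above CGAS, CGAS above STING1 and STING1 above MAVS in all 12 libraries, and of these steps only that from IRF3 to CGAS had ranges that did not overlap. IFI16 exceeded IRF3 in 8 of 12 libraries, the treated ones, while MAVS against TBK1 (7 of 12), TBK1 against TREX1 (10 of 12) and TREX1 against IFIH1 (8 of 12) could not be ordered beyond their spread. The lengths are of all annotated exons joined, 14716 bases for TBK1 and 11771 for MAVS, so genes with many alternative exons come out low on this scale.

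**Figure D1:**
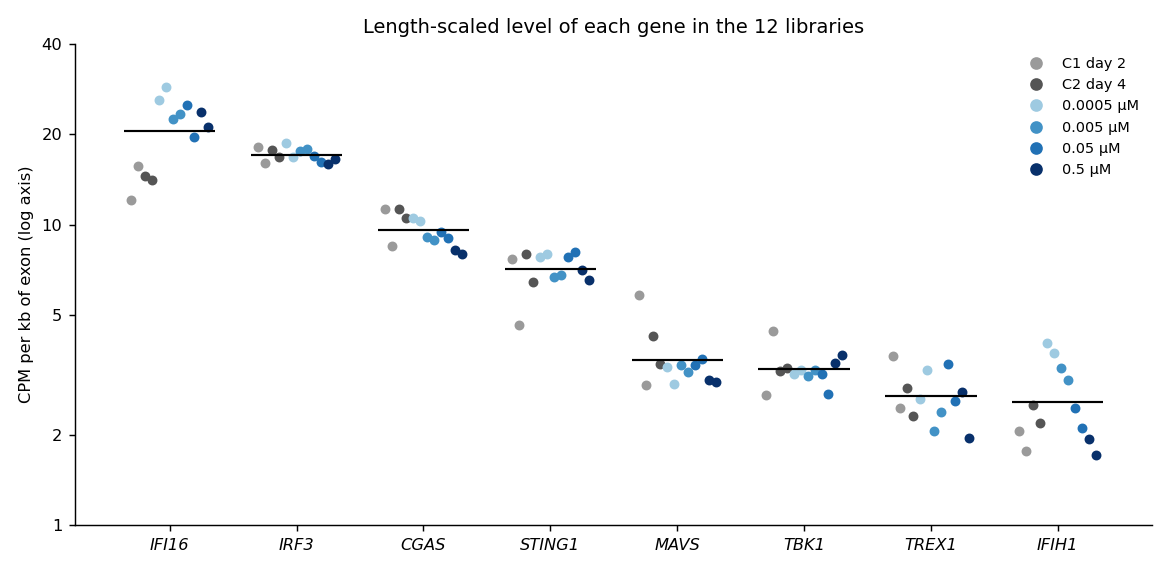
Length-scaled level (CPM per kb of joined exons, log axis) of each member in the 12 libraries, coloured by condition, with the mean over all libraries as a line. IFI16 lies between 12.1 and 15.7 in untreated and between 19.6 and 28.9 in treated libraries, while IRF3 stays between 16.0 and 18.7 throughout.

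IFI16, the DNA sensor of the PYHIN family (chr1:158969758-159024945, plus strand, GRCh37), was higher in every treated library than in any untreated one. Its level was 64.0 and 83.2 CPM in C1 and 76.8 and 74.9 CPM in C2. From the lowest to the highest dose it was 138 and 153, 119 and 124, 133 and 104, and 126 and 112 CPM. The 8 treated libraries thus did not overlap the 4 untreated ones, which held for 1 of 8 members and for 13.2% of all genes tested. Against the 4 untreated libraries the log2 change was 0.75 (SE 0.11, 95% interval 0.52 to 0.99, adjusted p = 0.000187 by edgeR's quasi-likelihood test). IFI16 was the 1 member called in this comparison, in which 24.4% of all genes were called. It was called in each fit that left out 1 library, with changes of 0.68 to 0.82, and with the libraries of day 4 alone (0.74, adjusted p = 0.00191).

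IFI16 was also called at each dose against C2, with log2 changes of 0.94 (SE 0.17), 0.68 (SE 0.17), 0.64 (SE 0.17) and 0.65 (SE 0.17) from the lowest to the highest dose. The edgeR adjusted p-values were 0.0117, 0.0461, 0.0337 and 0.0398. These 4 comparisons share the C2 libraries and are not independent of each other. In the same order of doses, 2.34%, 3.28%, 8.32% and 6.32% of all genes tested were called, and 2, 1, 1 and 1 of the 8 members. The calls at single doses depended on single libraries: each was lost without either C2 replicate and without either replicate of the dose itself, and in all 4, 9, 9 and 8 of 12 fits that left out 1 library lost the call, with changes of 0.45 to 1.01 and adjusted p-values of up to 0.125, 0.281, 0.219 and 0.245. No trend with dose was called for IFI16, whose slope was -0.09 per 10-fold dose (SE 0.04, adjusted p = 0.293), and the highest dose was 0.29 below the lowest on the log2 scale (SE 0.16, adjusted p = 0.437).

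**Figure D2:**
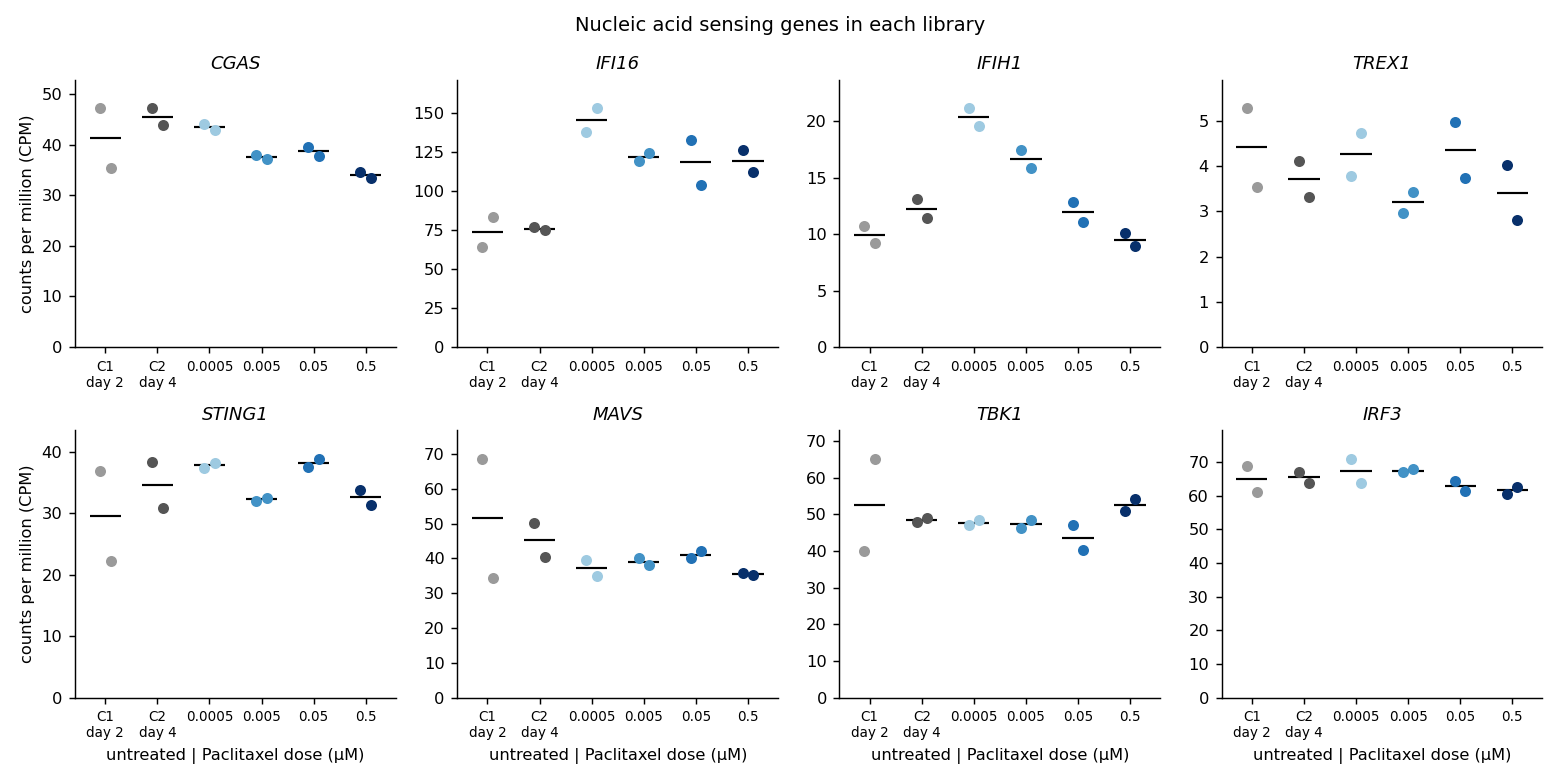
Level (CPM) of the 8 members in each library, in the 2 untreated conditions and at the 4 Paclitaxel doses, with points for libraries and a line for the mean of the pair. IFI16 is at 104 CPM or more in all treated libraries, IFIH1 steps down from 21.1 and 19.6 to 10.1 and 8.94 CPM with dose, and the replicates of C1 lie far apart for MAVS, TBK1 and STING1.

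CGAS (chr6:74123238-74162020, minus strand), the enzyme that makes cyclic GMP-AMP, did not pass the test in any comparison. It was at 47.1 and 35.4 CPM in C1 and 47.1 and 43.9 CPM in C2. Under treatment it was at 44.02 and 42.9, 37.9 and 37.1, 39.6 and 37.7, and 34.5 and 33.4 CPM from the lowest to the highest dose. Both libraries at 0.5 μM lay below all 4 untreated ones. The change there was -0.42 (SE 0.15, 95% interval -0.74 to -0.10, adjusted p = 0.114 by edgeR), or 0.75 of the C2 level. This value was past the threshold when 1 or the other C1 replicate was left out, but the change itself stayed at -0.43 in both fits (SE 0.11 and 0.10). The C1 replicates are not part of this comparison and enter only the spread that the 6 conditions share. With the 4 libraries compared fitted alone the change was -0.41 (adjusted p = 0.043 by edgeR). That fit called 2578 of 22518 genes, against 1596 of 25249 in the main fit. The slope of CGAS was -0.10 per 10-fold dose (SE 0.03, adjusted p = 0.121 by edgeR and 0.0348 by DESeq2).

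Among 19 other genes of DNA sensing, 15 were tested. From the lowest to the highest dose, edgeR called 1, 1, 2 and 0 of them against C2, where 2.34%, 3.28%, 8.32% and 6.32% of all genes were called. For the highest dose, DESeq2 called 1 of the 15 lower and 0 higher. In edgeR, 2 of the 15 passed 0.05 there before the adjustment, and 0 after it. AIM2, the inflammasome sensor of the same family as IFI16, was called at the 3 lower doses, at under 0.6 CPM in every library, and it was named after its values were seen. At each of these doses some fit without 1 library called no risen gene of this list. MRE11, a nuclease of double-strand break repair that also binds cytosolic DNA, fell at 0.05 μM (-0.59, SE 0.16, adjusted p = 0.0436), a call lost in some fit without 1 library. Against all untreated libraries 1 of the 15 rose and 6 fell, where 24.4% of all genes were called, and the list's median was -0.16 against -0.0019 over all tested genes and -0.14 over the 12245 genes of at least 5 CPM. PRKDC, the catalytic subunit of DNA-dependent protein kinase, fell by 0.84 (SE 0.15, adjusted p = 0.00097), MRE11 fell by 0.53 (SE 0.11, adjusted p = 0.00198) and HMGB1, a chromatin protein, fell by 0.48 (SE 0.15, adjusted p = 0.0311). C1 replicate 1 was the highest library for PRKDC, at 582 CPM against 295 to 330 CPM in the other untreated and 194 to 251 CPM in the treated libraries, and without it 2 rather than 6 genes of the list fell. The list's median was -0.07 without C1 replicate 2 and -0.06 with the libraries of day 4 alone.

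IFIH1, which encodes MDA5 (chr2:163123584-163175194, minus strand), rose at the lowest dose and then declined with dose. Its level was 10.7 and 9.19 CPM in C1 and 13.1 and 11.4 CPM in C2. From the lowest to the highest dose it was 21.1 and 19.6, 17.5 and 15.8, 12.9 and 11.03, and 10.1 and 8.94 CPM. Both libraries of each dose lay below both of the next lower dose, without overlap. The slope was -0.38 per 10-fold dose (SE 0.04, 95% interval -0.46 to -0.29, adjusted p = 0.000116 by edgeR), and IFIH1 was the 1 member of 8 called, where 3.15% of all genes were. It was called in all 16 alternative fits of the slope, with values of -0.40 to -0.36. The filled and open points of the plot of changes against C2 show the same order.

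**Figure D3:**
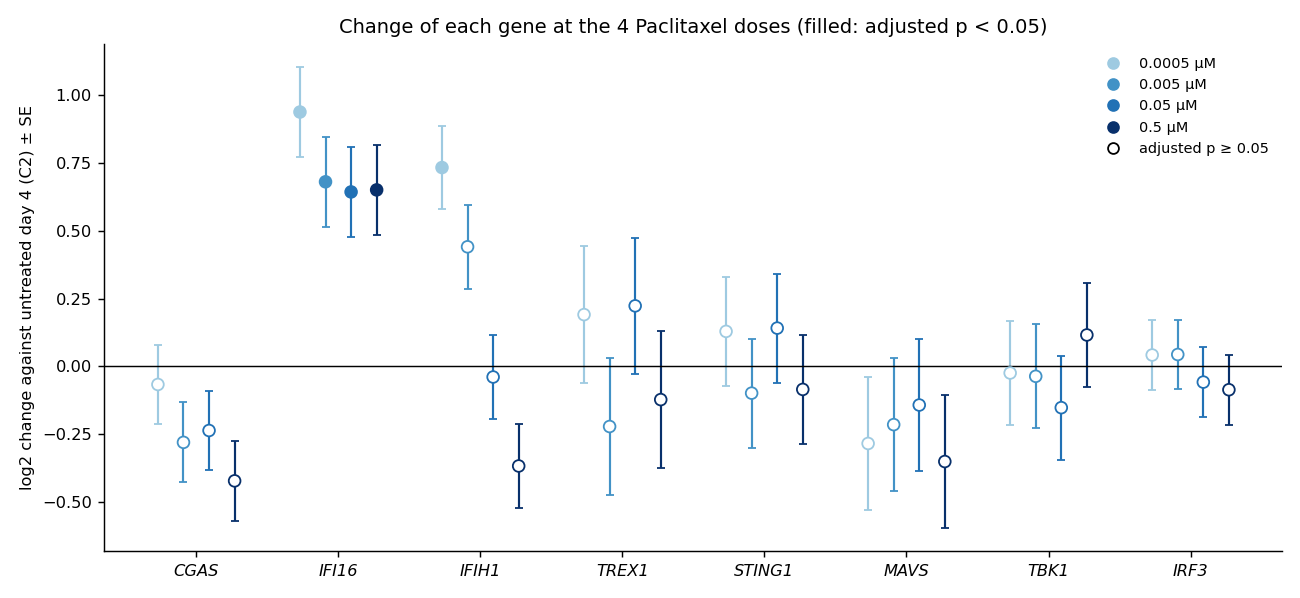
Log2 change of each member against C2 with its standard error, by dose from light to dark, filled where the adjusted p was under 0.05. IFI16 lies between 0.64 and 0.94 at all doses, IFIH1 goes from 0.73 at 0.0005 μM to -0.37 at 0.5 μM, and the other 6 members have open points at every dose.

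Against C2, IFIH1 changed by 0.73 at 0.0005 μM (SE 0.15, adjusted p = 0.0281 by edgeR), a ratio of 1.66. This call was lost in 9 of 12 fits that left out 1 library, with changes of 0.63 to 0.84 over the 12 fits and adjusted p-values of up to 0.224. The changes at the higher doses were 0.44 (SE 0.15, adjusted p = 0.146), -0.04 (SE 0.15, adjusted p = 0.915) and -0.37 (SE 0.16, adjusted p = 0.184), and the value at 0.005 μM passed with both untreated days as the control (0.59, adjusted p = 0.0132). In the comparison of 0.5 with 0.0005 μM, added after the data were seen, IFIH1 fell by 1.10 (SE 0.16, 95% interval -1.44 to -0.76, adjusted p = 0.0101). It was 1 of 8 members called there, where 0.412% of all genes were, and the call was lost without any 1 of the 4 libraries compared (-1.20 to -1.02, adjusted p = 0.0799 to 0.244). The 8 treated against the 4 untreated libraries gave 0.39 (SE 0.20, adjusted p = 0.173), which mixes doses that lay above and below the controls.

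The other RNA sensors moved in both directions. Of 18 genes, all tested, 2 rose and none fell at 0.0005 μM, where 2.34% of all genes were called, and OAS2 and TLR8 rose and none fell at 0.005 μM (3.28%). A falling slope was called for 7 and a rising one for none, where 3.15% of all genes were called. At 0.05 μM 1 rose and 3 fell (8.32% of all genes), and against all untreated libraries 3 rose and 2 fell, where 24.4% of all genes were called. The genes that rose there were OAS2, TLR8 and NOD2, of which TLR8 and NOD2, named after their values were seen, were under 0.8 CPM in every library. NOD2 was also the gene that rose at 0.05 μM (1.93, SE 0.53, adjusted p = 0.0442 by edgeR). Against all untreated libraries, fits without 1 library gave 1 to 3 risen and 1 to 3 fallen genes. With the libraries of day 4 alone 1 rose and 2 fell, where 3408 of 25109 genes were called. Leaving out 1 library gave 1 to 5 genes that rose at 0.0005 μM and 2 to 7 with a falling slope. Such fits gave 0 to 4 risen genes at 0.005 μM, 0 to 1 risen and 0 to 4 fallen at 0.05 μM and 0 to 7 fallen at 0.5 μM, so each call of this list at these 3 doses was lost in some fit. OAS2, an enzyme that senses double-stranded RNA and activates RNase L, rose at 0.0005 μM by 1.45 (SE 0.20, adjusted p = 0.0025), from 7.61 and 6.96 CPM in C2 to 18.0 and 21.8 CPM. DDX60, a helicase of antiviral defence, rose by 0.59 (SE 0.14, adjusted p = 0.0487) and fell at 0.05 μM by 0.52 (SE 0.14, adjusted p = 0.0408). RIGI, the related helicase that binds RNA ends with phosphates and shares MAVS with IFIH1, was at 95.4 and 89.1 CPM in C2 and 113 and 110 CPM at 0.0005 μM, a change of 0.27 that did not pass. At 0.05 μM it fell to 59.8 and 52.5 CPM (-0.72, SE 0.16, adjusted p = 0.0182). The slopes per 10-fold dose were -0.49 for OAS2 (SE 0.06, adjusted p = 0.000631), -0.38 for DDX60 (SE 0.05, adjusted p = 0.00105) and -0.30 for RIGI (SE 0.06, adjusted p = 0.0128). TRIM65, a ubiquitin ligase that acts on MDA5, was lower at 0.05 μM (-0.61, SE 0.17, adjusted p = 0.0468) and 0.5 μM (-0.64, SE 0.17, adjusted p = 0.0459).

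**Figure D4:**
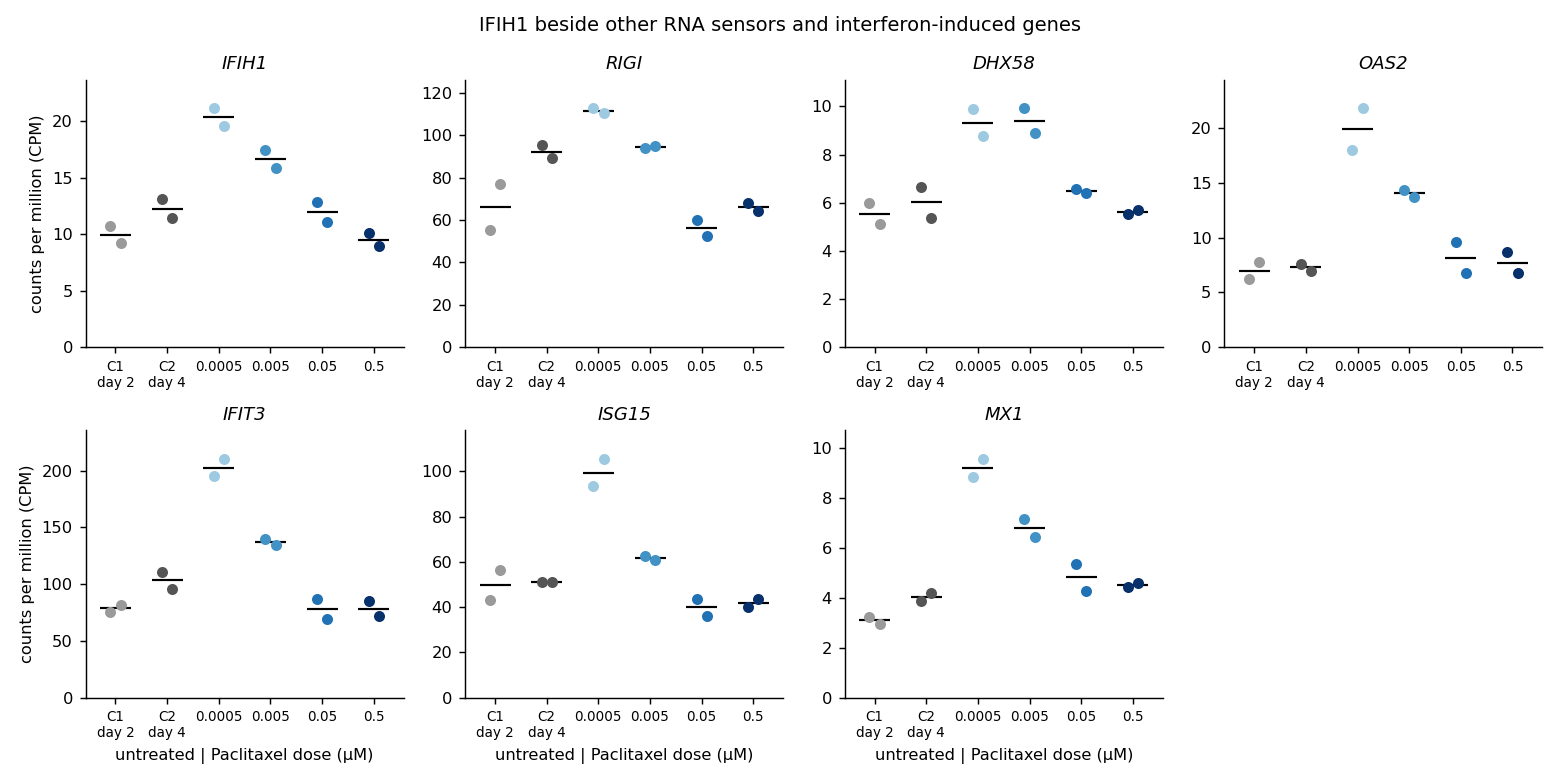
Level (CPM) of IFIH1, of 3 other RNA sensors or their regulators (RIGI, DHX58, OAS2) and of 3 interferon-induced genes (IFIT3, ISG15, MX1) in each library, with a line for the mean of the pair; these 6 neighbours were picked after their values were seen. All 7 panels have their highest mean at 0.0005 μM except DHX58, whose means at 0.0005 and 0.005 μM differ by less than their replicates do.

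STING1 (chr5:138855118-138862520, minus strand), the receptor of cyclic GMP-AMP, varied less between conditions than between the replicates of C1. It was at 36.9 and 22.2 CPM in C1 and 38.4 and 30.8 CPM in C2. From the lowest to the highest dose it was at 37.4 and 38.2, 32.1 and 32.6, 37.5 and 38.9, and 33.8 and 31.4 CPM. The changes against C2 lay between -0.10 and 0.14, and their 95% intervals between -0.54 and 0.58 in all, so changes of up to about 1.5-fold in either direction lay within the error with 2 replicates a group.

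MAVS (chr20:3827446-3856770, plus strand), the mitochondrial adaptor of IFIH1 and RIGI, had lower means at every dose than in either untreated group, without passing the test. It was at 68.6 and 34.5 CPM in C1, 50.2 and 40.5 CPM in C2, and 34.8 to 42.1 CPM in the 8 treated libraries. C1 replicate 2 lay just below all 8 treated libraries, C2 replicate 2 lay within their range, and the other 2 untreated libraries lay above it. The 8 against 4 comparison gave -0.34 (SE 0.14, 95% interval -0.63 to -0.06, adjusted p = 0.0744 by edgeR), where the median abundant gene changed by -0.14. The value passed without C1 replicate 2 (-0.45, adjusted p = 0.00905) and without C2 replicate 2 (-0.43, adjusted p = 0.0422), and was -0.13 without C1 replicate 1 (adjusted p = 0.442). At 0.5 μM the change against C2 was -0.35 (SE 0.24, adjusted p = 0.42 by edgeR). It passed without C1 replicate 1 or C1 replicate 2, but the change stayed at -0.36 in both fits (SE 0.12 each). As for CGAS, these replicates enter only the shared spread there.

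Of 27 genes known for the traffic and turnover of STING1 and MAVS, all tested, 0 were called at 0.0005, 0.005 and 0.5 μM by edgeR and 0 by DESeq2, with 2, 3 and 2 at an unadjusted p under 0.05, where 2.34%, 3.28% and 6.32% of all genes were called. Fits without 1 library called 0 to 1, 0 to 4 and 0 to 4 lower genes at these doses, and 0 to 1 risen genes at 0.05 μM. RNF125, a ubiquitin ligase that acts on RIGI, IFIH1 and MAVS, was the 1 gene of 27 called at 0.05 μM, where 8.32% of all genes were called. It rose by 0.67 (SE 0.18, adjusted p = 0.0381 by edgeR) to 4.42 and 4.50 CPM from 3.14 and 2.45 CPM. Against all untreated libraries 2 of 27 rose and 2 fell, where 24.4% of all genes were called, among them NLRX1, a mitochondrial protein that dampens MAVS signalling (-0.45, SE 0.15, adjusted p = 0.0323), with 0 fallen without C1 replicate 1 and 6 without C1 replicate 2.

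TBK1 (chr12:64845870-64895894, plus strand), the kinase that both STING1 and MAVS recruit, was at 40 and 65.1 CPM in C1 and 48.0 and 48.9 CPM in C2. The 8 treated libraries lay between 40.3 and 54.3 CPM, within the range of C1. Its changes against C2 ran from -0.15 to 0.12, with 95% intervals between -0.57 and 0.53.

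IRF3 (chr19:50162826-50169132, minus strand), the transcription factor that TBK1 phosphorylates, was the steadiest member, with 1.17-fold between its highest and lowest library. It was at 68.8 and 61.0 CPM in C1, 67.1 and 63.8 CPM in C2 and 60.6 to 70.9 CPM under treatment. The changes against C2 were between -0.09 and 0.04 (SE 0.13 each), with 95% intervals between -0.36 and 0.32. IRF3 shares 734 exon bases with BCL2L12 on the opposite strand, and reads of these bases cannot be told apart where counting ignores strand.

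Of 22 other kinases, adaptors and transcription factors of the pathway, all tested, 0 were called by edgeR at any single dose, with 5, 4, 3 and 0 at an unadjusted p under 0.05 from the lowest to the highest dose, where 2.34% to 8.32% of all genes were called. DESeq2 called 3, 1, 0 and 0, and fits without 1 library called up to 3 risen genes at each of the 3 lower doses and up to 1 lower gene at 0.0005, 0.05 and 0.5 μM. Against all 4 untreated libraries 4 of 22 rose and 0 fell, where 24.4% of all genes were called, with a list median of 0.16. With the libraries of day 4 alone 2 rose and 1 fell, where 3408 of 25109 genes were called. The median was 0.06 without C1 replicate 2 and 0.07 with day 4 alone. IRF9, a subunit of the interferon-activated complex ISGF3, rose by 0.85 (SE 0.29, adjusted p = 0.0371) at a mean of 1.98 CPM. IRF7, an interferon-inducible relative of IRF3, rose by 0.55 (SE 0.14, adjusted p = 0.00815), and TANK, a scaffold that binds TBK1, rose by 0.39 (SE 0.11, adjusted p = 0.0187). IRF7 was at 12.3 to 18.0 CPM in untreated libraries, 31.2 and 25.5 CPM at 0.0005 μM and 20.6 and 17.5 CPM at 0.5 μM, and its slope was -0.17 per 10-fold dose (SE 0.04, adjusted p = 0.0373), a call lost in some fit without 1 library.

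TREX1 (chr3:48507210-48509044, plus strand), the exonuclease that clears DNA from the cytosol, had the fewest counts of the members, 119 to 376 a library. It was at 5.28 and 3.55 CPM in C1, 4.13 and 3.33 CPM in C2 and 2.81 to 4.97 CPM under treatment, so the groups overlapped at every dose. The changes against C2 ran from -0.22 to 0.22 with 95% intervals between -0.77 and 0.77. All 1448 exon bases of TREX1 lie within the gene ATRIP on the same strand, which had 315 to 1065 counts, so reads could have been split between them or dropped and the level of TREX1 is uncertain.

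Among 20 other nucleases and dampers of the pathway, 19 were tested, and edgeR called 0, 1, 2 and 1 lower against C2 from the lowest to the highest dose. None was called higher, and DESeq2 called 0, 3, 3 and 4 lower. Of all genes, 2.34%, 3.28%, 8.32% and 6.32% were called by edgeR. ENPP1 was called at the 3 higher doses, and LRRC8C was the other gene called at 0.05 μM. ENPP1 encodes the ectoenzyme that hydrolyses cyclic GMP-AMP outside the cell. It was at 406 and 319 CPM in C2, and from the lowest to the highest dose at 239 and 281, 217 and 182, 155 and 139, and 185 and 146 CPM. The changes at the 3 higher doses were -0.86 (SE 0.18, adjusted p = 0.0231), -1.30 (SE 0.18, adjusted p = 0.00168) and -1.13 (SE 0.18, adjusted p = 0.00464). Fits without 1 library called 0 to 4, 1 to 5 and 0 to 6 lower genes of this list at these doses, so the ENPP1 calls at 0.005 and 0.5 μM were lost in some of them. The 8 treated libraries, at 139 to 281 CPM of ENPP1, all lay below the untreated ones, at 292 to 406 CPM. Such a lack of overlap, in either direction, held for 13.2% of all genes tested. Genes with a falling slope numbered 4, where 3.15% of all genes were called and fits without 1 library gave 1 to 4, with ENPP1 (-0.24, SE 0.06, adjusted p = 0.0369), SAMHD1, which degrades deoxynucleotides (-0.25, SE 0.04, adjusted p = 0.0026), and DNASE2, the lysosomal DNase (-0.23, SE 0.04, adjusted p = 0.0105), among them. Against all untreated libraries edgeR called 0 of 19 higher and 5 lower, a share near the 24.4% of all genes called. DESeq2 called 1 higher and 6 lower, and the fits without C1 replicate 1 or C1 replicate 2 each called 1 higher and 5 lower. Among the 5 were RNASEH2A, the catalytic subunit of RNase H2, at -0.56 (SE 0.10, adjusted p = 0.000799 by edgeR) and RNASEH2B at -0.55 (SE 0.13, adjusted p = 0.00612).

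The interferon list held 32 genes, and 27 were tested. Interferons and interferon-induced genes were taken as the output of the pathway, and the list also held IFNAR1, IFNAR2, JAK1 and TYK2, the interferon receptor and its kinases. IFNB1 and IFNA1 had 0 counts in all 12 libraries, which allows up to 0.0379 to 0.0782 CPM a library for counting error alone (3 counts). At 0.0005 μM 14 of the 27 rose and 0 fell, where 2.34% of all genes were called, with a median of 0.89 against -0.01 over all genes. At the next 3 doses 9, 4 and 2 genes rose, where 3.28%, 8.32% and 6.32% of all genes were called. At the highest dose 1 gene fell, and the medians at the 3 doses were 0.43, -0.16 and -0.17. The slope was negative for all 27 and called for 17, IFNAR2 among them, where 3.15% of all genes were called. The median slope was -0.35 per 10-fold dose against 0.01 over all genes. Leaving out 1 library gave 7 to 18 risen genes at 0.0005 μM, 2 to 15 at 0.005 μM and 10 to 21 falling slopes, and the medians stayed between 0.79 and 0.96, 0.37 and 0.52, and -0.39 and -0.33. At 0.05 μM such fits gave 0 to 4 risen and 0 to 5 fallen genes, and at 0.5 μM 0 to 3 risen and 0 to 3 fallen, so the counts at the 2 higher doses hold no direction. Against all untreated libraries 9 of 27 rose and 1 fell, where 24.4% of all genes were called, and TYK2 was among the genes called. Against those of day 4 alone 4 rose and 1 fell, where 3408 of 25109 genes were called.

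Several genes of this list that rose at 0.0005 μM were of low abundance. CXCL10, a chemokine for T cells, went from 0.098 and 0.48 CPM in C2 to 3.00 and 2.14 CPM (3.19, SE 0.46, adjusted p = 0.00293). IFI27 went from 0.52 and 0.79 to 4.69 and 4.81 CPM (2.86, SE 0.27, adjusted p = 0.000179), and RSAD2, the antiviral enzyme viperin, from 1.06 and 0.96 to 4.12 and 4.12 CPM (2.02, SE 0.25, adjusted p = 0.000981). OASL, which enhances RIGI signalling, fell at 0.5 μM against C2 (-0.63, SE 0.15, adjusted p = 0.0323) and had a slope of -0.71 (SE 0.06, adjusted p = 1.24e-05), beside slopes of RSAD2 at -0.57 (SE 0.07, adjusted p = 0.000683) and IFIT2 at -0.55 (SE 0.06, adjusted p = 0.000116). OASL was at 41.3 and 35.0 CPM in C2, and from the lowest to the highest dose at 97.8 and 97.2, 63.0 and 62.2, 30.3 and 24.8, and 24.9 and 24.5 CPM. IFNL1, an interferon lambda named after its values were seen, was at 0.10 and 0.055 CPM in C2 and 0.78 and 0.85 CPM at 0.0005 μM (3.36 on the log2 scale, adjusted p = 0.00606).

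Nuclear envelope genes were listed because a torn envelope exposes DNA to CGAS. All 16 were tested, and against the 4 untreated libraries 0 rose and 9 fell, where 24.4% of all genes were called, with a median of -0.29 where the median abundant gene changed by -0.14. The number fallen was 3 without C1 replicate 1, 11 without C1 replicate 2 and 6 with the libraries of day 4 alone. The last 2 of these fits called 7078 of 26797 and 3408 of 25109 genes. TMPO, which encodes lamina-associated proteins, fell by 0.76 (SE 0.12, adjusted p = 0.000298), LMNB2 fell by 0.74 (SE 0.17, adjusted p = 0.00478) and LMNB1, the B-type lamin whose loss marks senescent cells, fell by 0.66 (SE 0.18, adjusted p = 0.0117). LMNB1 was at 149.5 and 88.4 CPM in C1, 78.7 and 70.9 CPM in C2 and 49.9 to 52.3 CPM at the 2 lower doses, and 62.2 to 79.8 CPM at the 2 higher ones, with a slope of 0.19 (SE 0.05, adjusted p = 0.0384) that lost its call in some fit without 1 library. Against C2, TMPO was called at 0.005 μM (-0.58, SE 0.13, adjusted p = 0.0356) and 0.05 μM (-0.56, SE 0.13, adjusted p = 0.0244), LBR at 0.005 μM (-0.55, SE 0.13, adjusted p = 0.0463), and none at the other doses by edgeR, with 5 at 0.0005 μM and 4 at 0.5 μM at an unadjusted p under 0.05 and 2 and 0 by DESeq2. From the lowest to the highest dose, 2.34%, 3.28%, 8.32% and 6.32% of all genes were called, and fits without 1 library gave 0 to 5, 0 to 6, 0 to 4 and 0 to 5 lower genes of this list, so each of these calls was lost in some fit.

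Between day 2 and day 4 without drug, 0 of 8 members were called by edgeR, 0 at an unadjusted p under 0.05 and 0 by DESeq2, where 0.325% of all genes were called. The largest changes were 0.30 for IFIH1 (SE 0.16, adjusted p = 0.531), -0.26 for TREX1 (SE 0.25, adjusted p = 0.746) and 0.22 for STING1 (SE 0.20, adjusted p = 0.722). The replicates of C1 differed by 1.99-fold for MAVS, 1.66-fold for STING1 and 1.49-fold for TREX1, with replicate 1 higher, and TBK1 in replicate 1 was 0.62 of that in replicate 2. Without C1 replicate 1 the change was 0.64 for STING1 and 0.40 for MAVS, and without C1 replicate 2 it was -0.06 and -0.57. STING1 was called in the first and MAVS in the second of these fits. Both fits leave 1 library in C1, and in both more of all genes were called than in the main fit.

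The genes whose log2 CPM was most like that of IFI16 over the 12 libraries, among 11090 genes with a symbol and a mean of at least 5 CPM, were EVA1A (Pearson r = 0.99), S100P, a calcium-binding protein (r = 0.98), and TUBA1A, an alpha tubulin (r = 0.98). EVA1A was at 19.7 to 23.7 CPM in untreated and 27.3 to 34.1 CPM in treated libraries, S100P at 1.33 to 2.42 and 5.22 to 11.8 CPM, and TUBA1A at 293 to 330 and 552 to 804 CPM. The genes most like IFIH1 were OASL (r = 0.95), MEIS3, a homeobox gene (r = 0.94), and IFIT3 (r = 0.94). These values describe libraries that share dose, day and depth, and they carry no test. Of the 5 of these genes with a promoter given, IFIT3 held 2 matches to GAAANNGAAA in each of its 2 promoters and EVA1A 1 match in 1 of its 3, while S100P, TUBA1A and MEIS3 held none. One IFIT3 pair is shown with its flanks as an example of the letters in an interferon-induced gene, the second with 14 bases in an annotated exon, on the plus strand of GRCh37 at chr10:91092182-91092211 and chr10:91092225-91092254.
IFIT3, bases -104 to -75: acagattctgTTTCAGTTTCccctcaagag
IFIT3, bases -61 to -32: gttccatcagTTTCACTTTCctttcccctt
Among the members themselves IFI16 and IFIH1 correlated at r = 0.56 and CGAS and MAVS at r = 0.69, while STING1 and TBK1 correlated at r = -0.82, a value to which the 2 replicates of C1 contribute with opposite deviations.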

How the data were processed

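RNA of 12 libraries was sequenced as paired-end reads. Per the labels and the methods, the authors trimmed reads with Trimmomatic 0.39 after FastQC 0.11.9, aligned them to GRCh37 with STAR 2.7.5, kept uniquely aligned reads and counted them over exons with Rsubread. The strand setting is not given in the sources used here. The deposited values are raw read counts per Ensembl gene, and the 12 single-sample files hold the same counts as the joint table. Every row names a gene.

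Counts were scaled by TMM and tested with edgeR 4.0.16's quasi-likelihood test (R 4.3.3) over all genes passing filterByExpr, with Benjamini-Hochberg adjustment and a call at an adjusted p under 0.05. The 4 doses against C2 and C2 against C1 came from a model of the 6 conditions, the slope from the 8 treated libraries on log10 dose, and treated against untreated from its own fit. Standard errors are the log2 change divided by the root of F. Other lists named up to 3 called genes per comparison, the most changed with a mean of at least 1 CPM. The members and lists were chosen with earlier results of these data known. Replicates were labelled as biological, and with 2 per group p-values measure only the spread between these samples. Totals of 38380629 to 79169121 counts limit counting error, and floors and intervals of counts cover that error only. The pipeline was tested on simulated data.

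Alternatives were DESeq2 1.42.0, other scalings, filters, samples and controls, a replicate block and each library left out. The comparison of 0.5 with 0.0005 μM, the filter at a mean of 1 CPM, the fit with day 4 libraries alone and the list counts with libraries left out were added after the data were seen. Replicate numbers were not taken as pairs, since the replicate deviations of the groups correlated in both directions. The correlations ran from -0.60 to 0.68, and passed 0.1 in 8 of 15 pairs of groups. Protein sequences were not used here.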

Additional observations from a re-analysis of the deposited data

Results flagged for a closer look

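The response of IFIH1 differed between the highest and the lowest dose: the log2 change against C2 at 0.5 μM minus that at 0.0005 μM was -1.099 (SE 0.16, adjusted p = 0.0101 by edgeR's quasi-likelihood test), with both libraries at 0.5 μM below both at 0.0005 μM. Its changes against C2 were 0.73 at the lowest and -0.37 at the highest dose. The difference itself was tested, in a comparison added after the data were seen, and it was not called without any 1 of the 4 libraries compared.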

How the results depend on the processing

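Of 1336 gene values under alternatives, 1216 kept their direction and their side of the threshold, 43 lost and 17 gained a call, and 60 turned direction. None of the 60 belonged to a called result, and the largest value that turned was 0.259 on the log2 scale. Upper quartile scaling, only the 4 samples compared and both untreated days as control each called 2 members at 0.005 μM. Of all genes they called 825 of 25249, 2592 of 23502 and 3401 of 25249. The members called were also 2 at 0.5 μM with only the 4 samples (2578 of 22518 genes) and 2 for the slope with DESeq2 (1645 of 48272). They were 2 for treated against untreated in the model of 6 conditions (6629 of 25249). The main fits called 827, 1596, 789 and 6155 genes in these comparisons. For treated against untreated, 2 members were called without C1 replicate 2 or C2 replicate 2, where 7078 of 26797 and 6277 of 26804 genes were called. Leaving out 1 library also changed the number of members called at every dose, between the days and for 0.5 against 0.0005 μM. Such fits leave 1 library in a group, and the number of all genes called changed in them as well. Their counts are therefore not read as results about the members.

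Upper quartile scaling moved the median abundant gene from -0.1419 to -0.0103 for treated against untreated, and the share of higher calls from 53.5% to 76.4% there, from 61.2% to 75.7% at 0.05 μM and from 69.0% to 79.5% at 0.5 μM. With it TBK1 was 0.028 at 0.0005 μM, 0.081 at 0.005 μM and 0.039 for treated against untreated, STING1 0.024 at 0.005 μM and 0.029 at 0.5 μM, IFIH1 0.062 at 0.05 μM, IRF3 0.044 at 0.05 μM, 0.026 at 0.5 μM and 0.124 for treated against untreated, the MAVS slope 0.005 and TREX1 0.038 for treated against untreated. With a mean of at least 1 CPM, TBK1 was 0.006, 0.055 and 0.005 in the same 3 comparisons, IFIH1 0.044 and IRF3 0.025 at 0.05 μM, STING1 0.000 at 0.5 μM and IRF3 0.082 for treated against untreated, and IRF3 was 0.013 there with a mean count of at least 10. With both untreated days as control CGAS was 0.002 at 0.0005 μM, STING1 0.013 at 0.005 μM and 0.027 at 0.5 μM, and IFIH1 0.109 at 0.05 μM, where the 4 samples alone gave 0.002. IRF3 between the days was -0.018 with DESeq2 and -0.014 with RLE scaling, and TREX1 with day 4 libraries alone was 0.041. The cause of these turns was not tested.

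Leaving out 1 library, STING1 ranged over -0.029 to 0.297, -0.259 to 0.067, -0.02 to 0.306 and -0.246 to 0.08 from the lowest to the highest dose, IRF3 over -0.039 to 0.114 and -0.003 to 0.078 at the 2 lower doses, IFIH1 over -0.162 to 0.066 and MAVS over -0.3 to 0.019 at 0.05 μM, and TREX1 over -0.004 to 0.385 and -0.438 to 0.105 at the 2 higher doses. Between the days the ranges were -0.02 to 0.362 for CGAS, -0.132 to 0.275 for IFI16, -0.061 to 0.641 for STING1, -0.565 to 0.398 for MAVS, -0.423 to 0.308 for TBK1, -0.04 to 0.103 for IRF3 and -0.47 to 0.075 for TREX1. Slopes ranged over -0.046 to 0.01 for MAVS, -0.001 to 0.046 for TBK1 and -0.088 to 0.016 for TREX1. Treated against untreated gave -0.181 to 0.079 for TBK1, -0.033 to 0.014 for IRF3 and -0.198 to 0.047 for TREX1, and 0.5 against 0.0005 μM gave -0.163 to 0.027 for MAVS.

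The replicate block left the members called at 2, 1, 1 and 1 for the doses, 0 between the days and 1 for the slope, for treated against untreated and for 0.5 against 0.0005 μM. Over all genes it moved the calls of the slope from 789 to 421, and no other count by over 1.5 times. The replicate deviations of the groups correlated at -0.60 to 0.68 over 15 pairs of groups, so the numbers were not taken to pair the samples.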
